A study of Mus musculus with 19 samples.

Results

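Retinol and retinoic acid metabolism was followed in mouse liver through 9 genes, chosen by name from the deposited table of 24054 genes. They were Rbp4, Adh1, Rdh7, Rdh9, Rdh16, Aldh1a1, Aldh1a7, Cyp26a1 and Cyp26b1. All 9 were found and all 9 passed the filter on low values (a mean value of at least 1), as did 11580 genes in all. The RNA came from whole livers of C57BL/6 mice on chow diet that were Raly flox/flox, so that floxed Raly alleles were shared by both groups. Mice received an adeno-associated virus 4 weeks earlier, AAV8.TBG.Cre for the 3 L-RalyKO mice and AAV8.TBG.GFP for the 3 controls, which the sample labels call wild type. The TBG promoter is active in hepatocytes, so other liver cells keep their Raly gene. The age of these mice is not given in the sources used here.

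Vitamin A reaches the liver as retinyl ester, is stored mainly in stellate cells and leaves the liver as retinol bound to retinol binding protein. Retinol is oxidised reversibly to retinal by alcohol and short-chain dehydrogenases, and retinal is oxidised irreversibly to retinoic acid by aldehyde dehydrogenases. Retinoic acid binds the nuclear receptors RAR and RXR and is cleared by CYP26 hydroxylases. Cyp26a1 itself is a well-known target of retinoic acid and its receptors.

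Values are CPM, read counts relative to the effective size of each library after TMM scaling. Between 28302983 and 38052705 reads were counted on genes per mouse, and 3 reads correspond to a value between 0.0789 and 0.105. The targeted gene Raly averaged 48.5 ± 1.67 in controls but 6.78 ± 0.546 in L-RalyKO livers (SD, n = 3). Hepatocyte markers were present in every library (Alb, Apoa1, Ttr, Cps1, Hnf4a, Tat, Serpina1c and G6pc). Their summed value was between 100586 and 101592 in L-RalyKO and between 90567 and 99394 in control livers, without overlap. Alb made up most of this sum, and its own groups overlapped (adjusted p = 0.889, limma). Hnf4a was higher and G6pc lower at adjusted p under 0.05 (limma), and Apoa1, Cps1 and Serpina1c were higher without overlap. The part of these hepatocyte markers in the results below was not tested. The summed value of 10 stellate cell markers was between 251 and 324 in L-RalyKO and between 258 and 285 in control livers. The same sums over endothelial (5 genes), Kupffer cell (6 genes) and cholangiocyte markers (5 genes) also overlapped between the groups. Among markers of the other cell types, those without overlap were higher in L-RalyKO, namely the cholangiocyte genes Sox9 (4.95 ± 0.823 against 3.11 ± 0.838, adjusted p = 0.0774, limma) and Krt19 (0.754 ± 0.350 against 0.396 ± 0.0645, below the filter) and the stellate cell gene Col1a2 (14.1 ± 2.49 against 10.6 ± 0.959, adjusted p = 0.105, limma). Spp1 made up most of the cholangiocyte sum, and the part of these markers in the results was not tested. The sum over 6 lymphocyte markers was at most 3.12 in any liver, and no marker of these lists was at 0 in all livers.

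Of the 9 retinoid genes, Cyp26a1 and Adh1 fell in L-RalyKO liver and none rose at adjusted p under 0.05 (limma). Across all genes tested 6.55% passed this threshold, 3.36% higher and 3.19% lower. With total count scaling 325 genes were higher and 470 lower, against 389 and 369 with the deposited scaling. Cyp26a1, which encodes the principal retinoic acid hydroxylase of liver, decreased from 9.6 ± 4.23 to 3.75 ± 0.895 and Adh1, the class I alcohol dehydrogenase, from 1672 ± 19.3 to 1401 ± 89.3 (SD, n = 3 mice each). The other 7 genes did not pass the threshold. When all genes with at least 1 read were tested, 2.81% of them were called and none of the 9, with adjusted p = 0.0778 for Cyp26a1 and 0.113 for Adh1 (limma). The median log2 fold change over the 9 genes was -0.22, with 3 values above 0 and 6 below, and it was 0.0044 over all genes tested. In bulk liver, fewer cells of a type and less RNA per cell cannot be told apart.

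**Figure D1:**
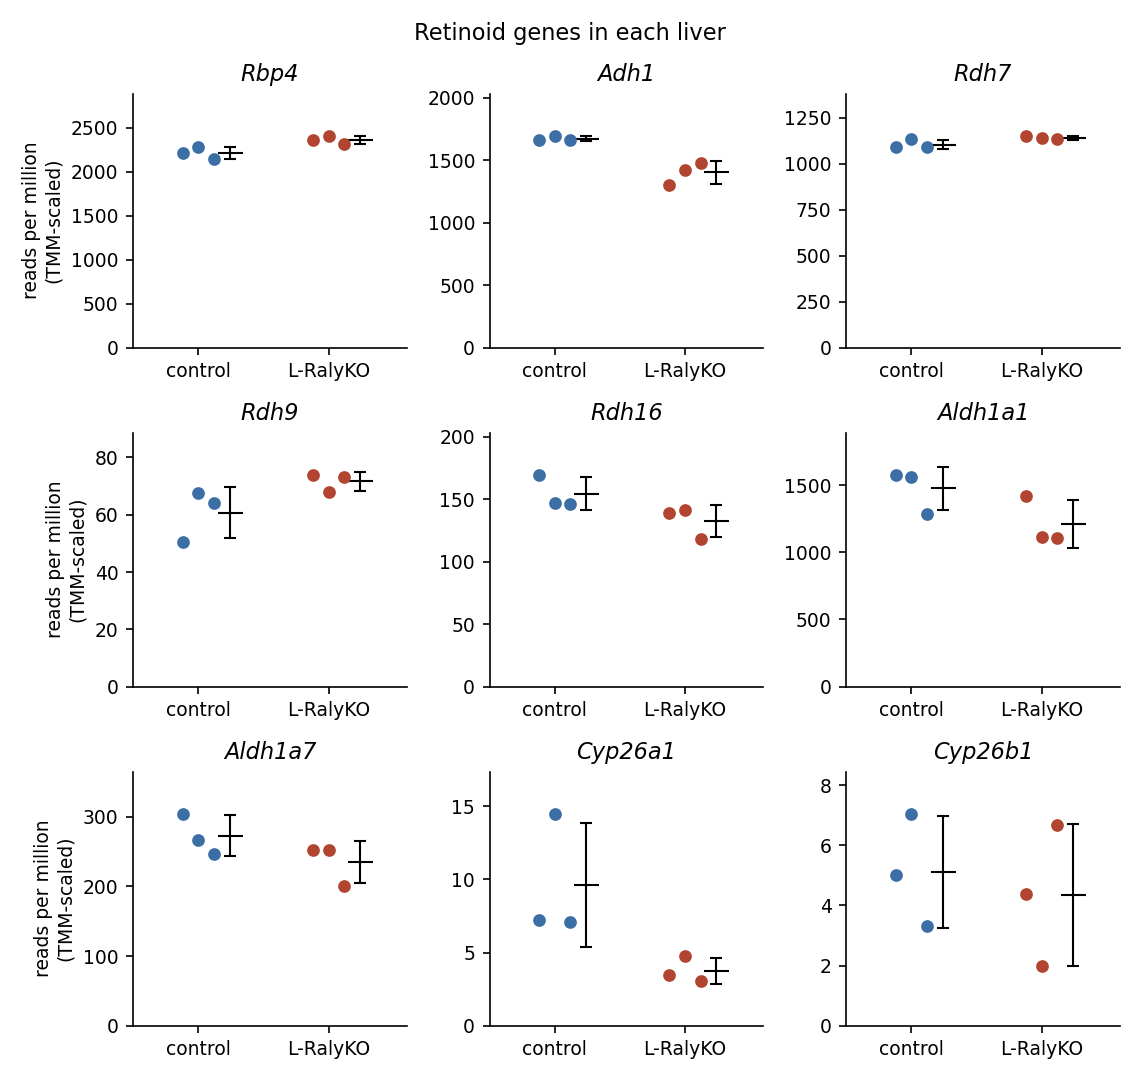
Values of the 9 retinoid genes in each liver (y axis, TMM-scaled CPM, from 0), for 3 control and 3 L-RalyKO mice. Points are mice, and the bar beside them is the mean with its SD. The L-RalyKO points of Cyp26a1, at most 4.76, lie below every control point, and those of Adh1, at most 1481, do so as well.

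The genes differed widely in level. Per kilobase of exon (merged exons of GENCODE vM1), Rbp4 was the highest in control liver with 1703 ± 50.8 CPM per kb. Adh1 (749 ± 8.63), Aldh1a1 (719 ± 79.0) and Rdh7 (655 ± 14.3) followed on the same scale (SD, n = 3). Adh1 and Aldh1a1 overlapped between control livers, as did Aldh1a1 and Rdh7, so the order of these neighbours is not settled. Below them stood Aldh1a7 (132 ± 14.2), Rdh16 (24.8 ± 2.13), Rdh9 (14.98 ± 2.22), Cyp26a1 (5.42 ± 2.38) and Cyp26b1 (1.11 ± 0.405), each apart from its neighbours in the control livers. These levels and overlaps depend on the length used. Merged exons and the longest transcript were 2233 and 1492 bases for Adh1 but both 2053 for Aldh1a1. They were 4054 and 2766 bases for Rdh9 and 6217 and 3286 for Rdh16. The order by transcript length was not examined. Of these 9 genes, the dehydrogenase genes all stood above the hydroxylase genes Cyp26a1 and Cyp26b1, whatever the substrate of each enzyme, which was not measured.

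**Figure D2:**
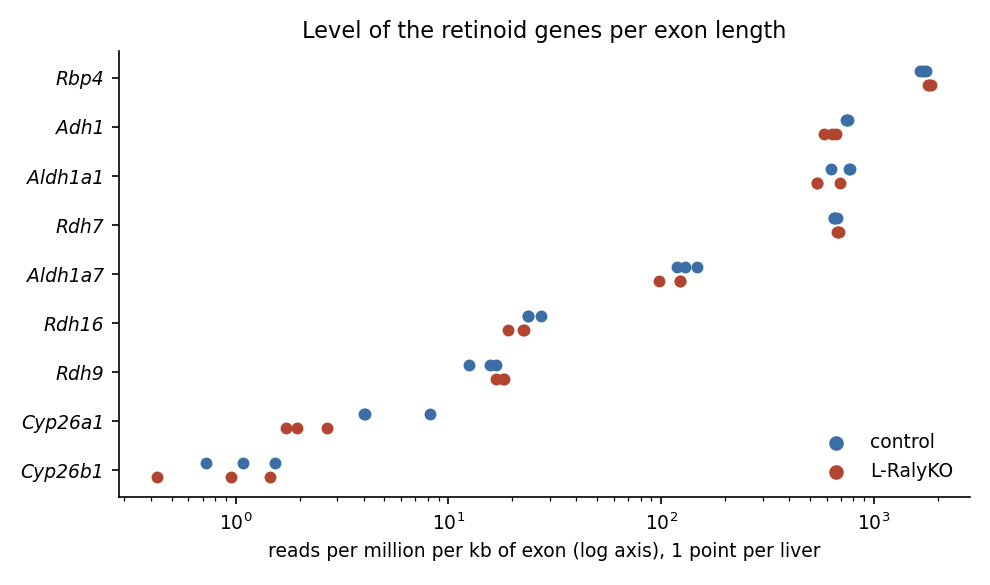
Level of each retinoid gene per kilobase of exon (x axis, CPM per kb, log scale), 1 point per liver, ordered by the control mean. Rbp4 leads at 1703 and Cyp26b1 is lowest at 1.11 in control liver, and the points of Adh1, Aldh1a1 and Rdh7 lie in nearly the same range.

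Rbp4 encodes the plasma protein that carries retinol out of the liver. The gene (ENSMUSG00000024990.6, NCBIM37 chromosome 19 from 38191110 to 38199811) measured 2357, 2407 and 2317 in L-RalyKO livers against 2209, 2276 and 2144 in controls. The L-RalyKO livers were all above the controls, but the gap was small beside the level. On the log2 scale the difference was 0.10, with a standard error of 0.059, a 95% interval from -0.04 to 0.23 and an adjusted p of 0.381 (limma). Groups without overlap were seen for 28.1% of all genes tested, 14.4% with L-RalyKO higher and 13.7% with L-RalyKO lower. Among the 9 retinoid genes 3 were without overlap and higher and 3 without overlap and lower. Ttr, which encodes the plasma partner of the retinol binding protein, averaged 4825 ± 415 in controls and 4904 ± 188 in L-RalyKO livers (log2 fold change 0.03, adjusted p = 0.897, limma).

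Adh1 (ENSMUSG00000074207.4, chromosome 3 from 137923955 to 137953662) measured 1305, 1419 and 1481 in L-RalyKO livers against 1664, 1694 and 1659 in controls. Every L-RalyKO liver was below every control, and the controls lay close together. On the log2 scale the difference was -0.26, with a standard error of 0.063, a 95% interval from -0.40 to -0.11 and an adjusted p of 0.0484 (limma), a fall of 16.2% in the mean value. The exact permutation test gave p = 0.1 (two-sided, the smallest p that 3 mice against 3 allow). The adjusted p was 0.0537 in edgeR's quasi-likelihood test and 0.00190 in DESeq2. The call was lost whichever mouse was left out, with adjusted p between 0.0527 and 0.163 (limma).

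Rdh7, Rdh9 and Rdh16 encode microsomal short-chain dehydrogenases that act on retinol and on hydroxysteroids. They lie in 1 stretch of chromosome 10 of NCBIM37, Rdh9 from 127196843 to 127229753, Rdh16 from 127238208 to 127283621 and Rdh7 from 127321084 to 127326095. None of them passed the threshold, and their fold changes differed in sign. Rdh7 measured 1152, 1139 and 1133 in L-RalyKO livers against 1093, 1133 and 1089 in controls (log2 fold change 0.05, 95% interval -0.07 to 0.16, adjusted p = 0.633, limma). The L-RalyKO livers were the higher ones, with the lowest of them nearly level with the highest control. Rdh9 measured 73.9, 68.0 and 73.1 in L-RalyKO livers against 50.6, 67.7 and 63.9 in controls (log2 fold change 0.24, 95% interval 0.02 to 0.47, adjusted p = 0.189, limma). Here too the groups were separated by a narrow gap, and control mouse 1 was far below the other controls. Without that mouse the log2 fold change of Rdh9 was 0.12. Rdh16 measured 139, 141 and 118 in L-RalyKO livers against 170, 147 and 147 in controls (log2 fold change -0.22, 95% interval -0.41 to -0.03, adjusted p = 0.165, limma). All L-RalyKO livers were below the controls. Without L-RalyKO mouse 3 the log2 fold change of Rdh16 was -0.14.

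The value of Rdh9 is uncertain to a degree, since Rdh1 overlaps it in the annotation and on the same strand. Only protein-coding transcripts were searched for shared words. In them, other genes contain 11.2% of all 150-base words found in Rdh9 transcripts (9.10% in Rdh1). For Rdh16 the share was 1.27% (Rdh9), and for the other 7 genes it was 0. With 50-base words the share was 21.55% for Rdh9, 10.3% for Rdh7, 7.74% for Rdh16 and 7.5% for Aldh1a1 and for Aldh1a7. The pseudogene Rdh18-ps, outside this search, lies inside the Rdh16 span on the same strand (127261340 to 127280994). Its log2 fold change was 0.50 (adjusted p = 0.0736, limma), and its part in the value of Rdh16 was not tested. Rdh1 itself had a value of at most 0.663 as a group mean and was below the filter.

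Aldh1a1 and Aldh1a7 are neighbouring genes on chromosome 19 (20676451 to 20717952 on the + strand and 20767443 to 20802052 on the - strand). Aldh1a1 encodes a cytosolic retinal dehydrogenase of hepatocytes, and Aldh1a7 is its close relative. Both had negative fold changes and neither passed the threshold. Aldh1a1 measured 1418, 1113 and 1105 in L-RalyKO livers against 1577, 1562 and 1289 in controls (log2 fold change -0.29, standard error 0.11, 95% interval -0.55 to -0.03, adjusted p = 0.180, limma). One L-RalyKO liver lay among the controls. Aldh1a7 measured 253, 252 and 201 in L-RalyKO livers against 304, 267 and 246 in controls (log2 fold change -0.21, standard error 0.10, 95% interval -0.45 to 0.02, adjusted p = 0.266, limma). Its groups overlapped as well, and without L-RalyKO mouse 3 or control mouse 1 the log2 fold change was -0.10 and -0.13. Of the summed level of the pair per kb, Aldh1a7 made up 15.5% ± 0.867 in controls and 16.2% ± 1.87 in L-RalyKO livers (SD, n = 3, two-sided exact permutation test p = 0.8).

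The pair has a stretch of promoter sequence that is alike, which is shown as a description. Both fold changes were below 0 without passing the threshold, and 6 of the 9 genes were below 0 in all. The 120 bases before the RefSeq start sites (GRCm38.p6) are chr19:20601848-20601967 (+ strand) for Aldh1a1, from 1 of its 2 windows, and chr19:20727557-20727676 (- strand) for Aldh1a7. Capitals mark the pentamer CCAAT, the core of the box read by NF-Y, a factor the study examines together with Raly.
Aldh1a1: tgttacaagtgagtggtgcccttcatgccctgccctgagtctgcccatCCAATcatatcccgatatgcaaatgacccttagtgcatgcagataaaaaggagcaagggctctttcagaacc
Aldh1a7: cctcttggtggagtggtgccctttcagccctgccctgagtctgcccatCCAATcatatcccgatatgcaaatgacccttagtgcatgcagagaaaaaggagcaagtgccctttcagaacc
Over the whole 300-base windows around these start sites, 70.4% of aligned positions were identical, against 50.6% for the other Aldh1a1 window and from 43.8% to 59.9% for pairs of windows among Rdh7, Rdh9 and Rdh16. CCAAT stood on either strand in a window of Rbp4, Rdh7 and Rdh9 (fold changes above 0) and of Aldh1a1 and Aldh1a7 (below 0). No window of Adh1, Rdh16, Cyp26a1 or Cyp26b1, all with fold changes below 0, held CCAAT. Of all 32851 RefSeq promoter windows of this length, 37.4% hold it, and these belong to 11096 of 27025 genes. The match is a description of the letters, and no binding was measured here.

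Cyp26a1 (ENSMUSG00000024987.5, chromosome 19 from 37772298 to 37776018 on the + strand) measured 3.43, 4.76 and 3.05 in L-RalyKO livers against 7.21, 14.5 and 7.11 in controls, from 116 to 413 reads per mouse. The groups did not overlap, and control mouse 2 stood far above the other controls. On the log2 scale (value + 1) the difference was -1.11, with a standard error of 0.24, a 95% interval from -1.66 to -0.55 and an adjusted p of 0.0349 (limma), and the mean value fell by 61.0%. The two-sided exact permutation test gave p = 0.1. Only 0.259% of the genes tested fell at least 2-fold with adjusted p under 0.05. Without control mouse 2 the log2 fold change was -0.80 (adjusted p = 0.0298, limma). The call was lost without L-RalyKO mouse 1 (adjusted p = 0.107, limma), L-RalyKO mouse 3 (0.0997) or control mouse 1 (0.0520). The adjusted p was 0.0362 in edgeR's quasi-likelihood test, 0.0111 in DESeq2 and 0.0530 in limma voom.

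Cyp26b1 (ENSMUSG00000063415.5, chromosome 6 from 84521938 to 84543740), a second retinoic acid hydroxylase, measured 4.39, 1.97 and 6.68 in L-RalyKO livers against 5.01, 7.05 and 3.33 in controls. Both groups spread over nearly the same range. Its log2 fold change was -0.25 with a wide 95% interval of -1.01 to 0.51 (adjusted p = 0.707, limma), and it became 0.12 without L-RalyKO mouse 2. A difference between Cyp26a1 and Cyp26b1 in their response was therefore not shown. The level of Cyp26a1 per kb was 4.87 ± 0.989 times that of Cyp26b1 in controls and 3.16 ± 2.72 times in L-RalyKO livers (SD, n = 3, two-sided exact permutation test p = 0.4). The remaining paralog Cyp26c1 had between 0 and 7 reads per liver and did not pass the filter.

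**Figure D3:**
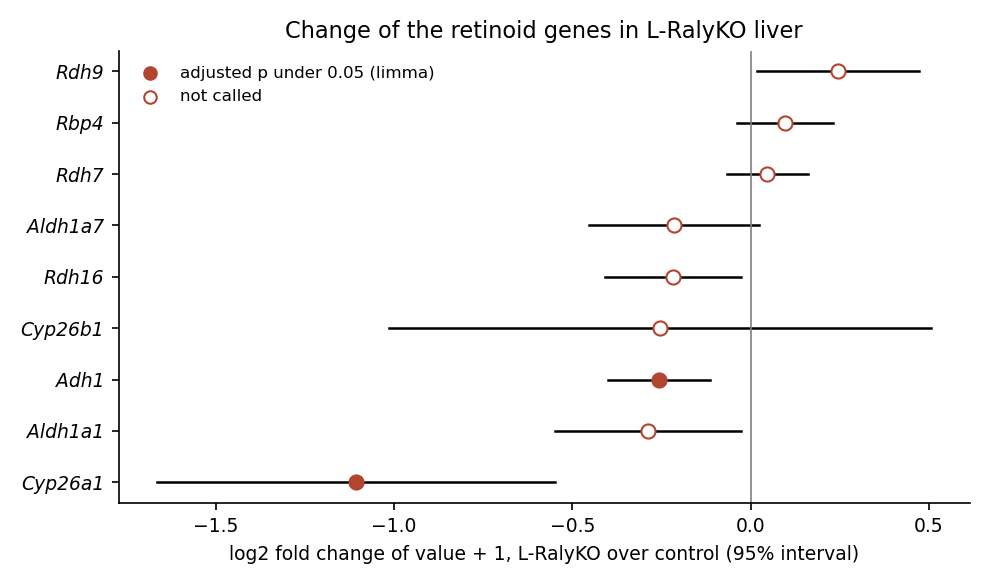
Log2 fold change (value + 1) of the 9 retinoid genes in L-RalyKO over control liver (x axis) with 95% intervals from limma, ordered by size. Filled points are genes at adjusted p under 0.05. The point of Cyp26a1 is lowest at -1.11, and those of the other genes lie between -0.29 and 0.24. The interval of Cyp26b1 is the widest and overlaps that of Cyp26a1.

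Near its start site Cyp26a1 holds a match to the DR5 type of retinoic acid response element, in which the hexamer AGGTCA, or in its place AGTTCA, or else GGGTCA, or finally GGTTCA, is repeated in the same direction after 5 bases. Both strands of all RefSeq promoter windows (GRCm38.p6) were searched for it. It occurred in 32 of 32851 windows (0.0974%), belonging to 31 genes, among them Cyp26a1 and Rarb and none of the other 8 retinoid genes. The 120 bases before the RefSeq start sites of these 2 genes are shown, with the element in capitals, because both genes fell. They are chr19:37697688-37697807 (+ strand) for Cyp26a1 and chr14:16575477-16575596 (- strand) for Rarb.
Cyp26a1: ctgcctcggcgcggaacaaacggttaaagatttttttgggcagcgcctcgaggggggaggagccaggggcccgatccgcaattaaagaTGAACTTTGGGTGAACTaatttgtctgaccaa
Rarb: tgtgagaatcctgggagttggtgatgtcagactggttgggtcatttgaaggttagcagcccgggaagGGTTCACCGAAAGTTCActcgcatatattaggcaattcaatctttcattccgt
In Cyp26a1 the element lies on the opposite strand. It matched NCBIM37 at chromosome 19 from 37772266 to 37772282, and begins 32 bases before the first annotated base of the gene there. In Rarb the element matched chromosome 14 of NCBIM37 from 17408027 to 17408043, inside the annotated span of the gene and before the RefSeq start site. Reads were counted per gene, so the Rarb transcript that fell is not known. Of the 31 genes with such a window 10 were in the expression table and only 3 passed the filter, namely Cyp26a1, Rarb and Blvrb. Blvrb, which encodes biliverdin reductase B, showed a log2 difference of -0.03 at an adjusted p of 0.870 (limma). The search was made after the values of these genes had been seen.

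A list of 59 further genes of retinoid transport, storage, oxidation and signalling was examined in the same fit. All were in the table, Bco1 and Stra6l under older symbols, and 40 passed the filter. Of the 40, 3 rose (Rara, Pck1 and Lpl), 4 fell (Rarb, Rxrg, Retsat and Tgm2) and 33 did not pass adjusted p under 0.05 (limma), beside 3.36% higher and 3.19% lower over all genes tested. The median log2 fold change of the list was -0.04. Genes of retinol transport (2 tested), carotenoid cleavage (2 tested), retinal oxidation (4) and the single tested hydroxylase of the list, Cyp2c39, did not pass the threshold.

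**Figure D4:**
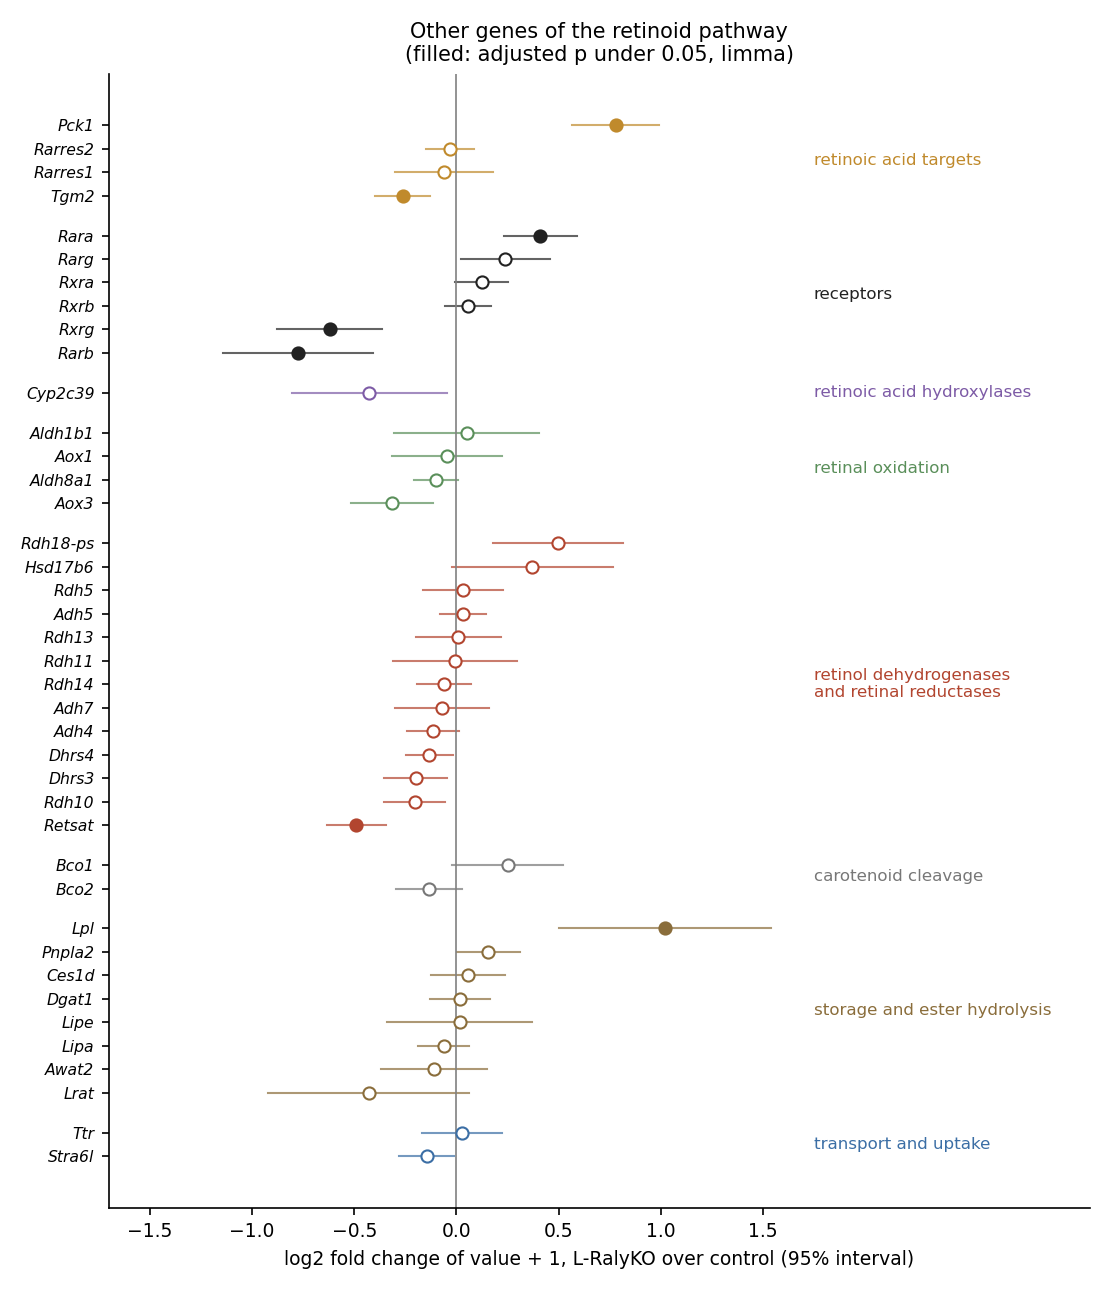
Log2 fold change (value + 1) in L-RalyKO over control liver (x axis) with 95% intervals from limma for the 40 tested genes of the wider retinoid list, grouped by role. Filled points are genes at adjusted p under 0.05. The receptor genes spread from -0.78 (Rarb) to 0.41 (Rara), and among the dehydrogenases and reductases Retsat lies lowest at -0.49 and the pseudogene Rdh18-ps, which is not filled, highest at 0.50.

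The nuclear receptor genes did not move together. Rara, the retinoic acid receptor alpha gene, measured 21.3, 24.4 and 19.9 in L-RalyKO livers against 16.1, 16.5 and 15.8 in controls, with no overlap (log2 fold change 0.41, standard error 0.079, adjusted p = 0.0195, limma). Rarb, the beta receptor gene and a classical target of retinoic acid, measured 2.30, 1.86 and 2.76 in L-RalyKO livers against 4.20, 6.07 and 3.84 in controls, again with no overlap (log2 fold change -0.78, standard error 0.16, adjusted p = 0.0269, limma). Rara thus rose while Rarb fell. Rxrg measured 2.97, 3.13 and 2.29 in L-RalyKO livers against 5.22, 4.42 and 4.81 in controls (log2 fold change -0.62, adjusted p = 0.0162, limma). Rxra, the main retinoid X receptor of liver, had values of 582 ± 25.2 and 534 ± 26.5 (log2 fold change 0.12, adjusted p = 0.247, limma). Rarg (log2 fold change 0.24, adjusted p = 0.181) and Rxrb (0.06, adjusted p = 0.546) did not pass the threshold in limma either. Both receptor genes that fell were low in liver, with 64 to 173 reads per mouse for Rarb and 87 to 178 for Rxrg.
The call of Rarb was lost without control mouse 1 (adjusted p = 0.0627, limma), control mouse 2 (0.0527), L-RalyKO mouse 1 (0.0817) or L-RalyKO mouse 2 (0.0855), and when all genes with at least 1 read were tested (0.0639). That of Rara was lost without control mouse 1 (0.0643) or L-RalyKO mouse 1 (0.0610) and that of Rxrg without control mouse 1 (0.0635).

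Among the dehydrogenases, reductases and oxidases of the wider list, Retsat alone passed the threshold. Retsat encodes retinol saturase, which reduces retinol to dihydroretinol. Its values were 381, 387 and 396 in L-RalyKO and 559, 582 and 499 in control liver, so that the groups were well separated (log2 fold change -0.49, standard error 0.063, adjusted p = 0.00429, limma). The call of Retsat was kept in all 16 alternative fits, with adjusted p of at most 0.0257. Aox3, an aldehyde oxidase that can act on retinal, had values of 688 ± 58.1 and 856 ± 89.5 (log2 fold change -0.31, adjusted p = 0.0716, limma). Aox3 did pass in DESeq2 (adjusted p = 0.00638) and with total count scaling (0.0411, limma). Dhrs3, which encodes a retinal reductase and is a retinoic acid target, had values of 79.0 ± 2.26 and 91.1 ± 7.85 (log2 fold change -0.20, adjusted p = 0.117, limma).

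Of the genes of storage and ester hydrolysis only Lpl, the lipoprotein lipase gene, passed the threshold, measuring 22.1, 31.1 and 22.7 in L-RalyKO livers against 7.66, 13.5 and 15.6 in controls (log2 fold change 1.02, standard error 0.23, adjusted p = 0.0356, limma). The groups did not overlap. Without L-RalyKO mouse 1, 2 or 3, or control mouse 2, the adjusted p of Lpl was 0.0740, 0.107, 0.0700 and 0.0572 (limma). It was 0.0652 without the intensity trend of the fit and 0.0769 when all genes with at least 1 read were tested. Lrat, which encodes the acyltransferase that makes retinyl ester in stellate cells, measured 11.3, 10.0 and 17.0 in L-RalyKO livers against 18.9, 21.2 and 12.5 in controls. Its groups overlapped (log2 fold change -0.43, adjusted p = 0.279, limma). The log2 fold change of Lrat was -0.28 without L-RalyKO mouse 2 or without control mouse 2. It was -0.64 without L-RalyKO mouse 3 or without control mouse 3.

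Of 11 genes listed as retinoic acid targets 6 passed the filter. Their log2 fold changes were above 0 for 1 gene (Pck1) and below 0 for 5, with a median of -0.13. Over all genes tested 5925 were above 0 and 5655 below. Besides Rarb, Tgm2, which encodes tissue transglutaminase, fell, measuring 80.4, 71.6 and 80.8 in L-RalyKO livers against 94.9, 94.1 and 90.7 in controls (log2 fold change -0.26, standard error 0.058, adjusted p = 0.0345, limma). The call of Tgm2 was lost without any single mouse other than control mouse 3, with adjusted p between 0.0518 and 0.109 (limma), without the intensity trend (0.0734) and when all genes with at least 1 read were tested (0.0536). Pck1, the gluconeogenic phosphoenolpyruvate carboxykinase gene, which many hormones control, rose from 3185 ± 382 to 5448 ± 150 (log2 fold change 0.78, standard error 0.093, adjusted p = 0.00312, limma), and this call was kept in all 16 alternative fits. Rarres1, Rarres2 and Dhrs3 did not pass the threshold.

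The genes whose log2 values followed Cyp26a1 most closely over the 6 livers, among the other 11579 genes tested, were Sned1 (Pearson r = 0.998), Dpm3 (0.995) and Carns1 (0.987). They had log2 fold changes of -0.19, -0.14 and -0.26, and none passed the threshold (adjusted p = 0.205, 0.266 and 0.242, limma). For Rdh9, the retinoid gene with the most positive fold change, they were Trim23 (r = 0.994), Ptgfrn (0.982) and Cyb5r1 (0.981). These correlations are a description of 6 livers in 2 groups that share scaling and the group difference, and they are the highest over 11579 genes. For each gene 1 liver stood far from its group, control mouse 2 for Cyp26a1 and control mouse 1 for Rdh9. The part of these livers in the correlations was not tested.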

How the data were processed

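RNA was sequenced from liver with a stranded kit (paired-end), aligned with TopHat to mm9 and quantified with Cufflinks according to the study's methods. The table the authors deposited holds no FPKM but a normalized signal, that is, reads per gene divided by effective library size. In each of the 6 columns 100% of values were whole multiples of the value of 1 read (tolerance 0.001), and the implied factors equalled TMM factors computed with edgeR, so reads were recovered. L-RalyKO and control mice were compared with limma 3.58.1 (intensity trend) on log2(value + 1), with Benjamini-Hochberg adjustment over 11580 genes, in R 4.3.3. Single values were compared by two-sided exact permutation tests (scipy 1.17.1). Intervals are at the 95% level. Precision is limited by 3 mice per group and, for genes with few reads, by depth. The labels number the mice but name no animal, so p values measure the spread between these samples. No library was a copy, since chi-square per degree of freedom within groups was 12.6 to 84.3. Control mouse 1 differed most from its group, with 71.1 and 84.3 against control mice 2 and 3. Between control mice 2 and 3 it was 18.2. Alternatives were edgeR 4.0.16, DESeq2 1.42.0, limma voom, other scalings, filters and pseudocount, a replicate block and leaving out each mouse. All fits were tested on simulated data, and the outcome is not reported here. Annotation was GENCODE vM1 on NCBIM37 (mm9), and promoters came from RefSeq (GRCm38.p6), in which all 9 retinoid genes were matched by symbol. Of the wider list, those at adjusted p under 0.05 were named, as were the receptors, Lrat and Ttr, and the genes closest in pattern (1 further gene of the rule is not reported here). Aox3, Dhrs3, Cyp2c39, Cyp26c1 and Blvrb were named after their values were seen. Members and lists were chosen with earlier results of these data known. The chromatin experiments were not analysed here.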

Additional observations from a re-analysis of the deposited data

How the results depend on the processing

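Over 16 alternative fits the log2 fold change of Cyp26a1 kept its sign and lay between -1.36 and -0.80, and its adjusted p between 0.00679 and 0.107. It was past 0.05 in 10 of them. Adh1 lay between -0.30 and -0.21 and was past 0.05 in 5 of 16. The call of Cyp26a1 was lost with limma voom (log2 fold change -1.26), and it was lost for both genes in limma without the intensity trend and when all genes with at least 1 read were tested (both with log2 fold changes of -1.11 and -0.26). That of Adh1 was also lost in edgeR's quasi-likelihood test (-0.26), with upper-quartile scaling (-0.26) and with the replicate block (-0.26, adjusted p = 0.0639). The 2 retinoid genes called lower therefore became 1 in edgeR, limma voom, upper-quartile scaling and the replicate block, and 0 without the trend and with all genes tested. Leaving out 1 mouse gave from -1.26 to -0.80 for Cyp26a1, from -0.30 to -0.21 for Adh1 and from 0 to 1 retinoid genes called lower. Cyp26b1 had a log2 fold change of 0.12 without L-RalyKO mouse 2 (from -0.57 to 0.12 over the mice left out) and could not be fitted with a mean of at least 5, which it does not reach. None of the other 6 retinoid genes changed sign or passed the threshold in any alternative. The wider list, with 4 genes called lower, had 2 with a mean of at least 5 and from 1 to 5 without 1 mouse (2 without L-RalyKO mouse 1 or 2 or control mouse 2, and 1 without control mouse 1), and from 1 to 4 called higher (1 without L-RalyKO mouse 1). Over all genes the 758 calls became 484 with all genes tested (254 higher, 230 lower) and from 335 to 812 without 1 mouse (168 to 454 higher, 167 to 358 lower), with 335, 440 and 502 without L-RalyKO mouse 1, 2 or 3 and 368 without control mouse 1. Same-numbered mice did not deviate together (correlations across genes of 0.066, -0.024 and 0.020), so the numbers do not pair them. The replicate block gave 704 calls, and with it Rarb (adjusted p = 0.0617, limma) and Tgm2 (0.0506) were no longer called, whereas Aox3 was (0.0277). The cause of these changes was not tested.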

Other observations

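Of 19 genes of the wider retinoid list that were too low for the filter, 13 had at least 1 read. When all genes with at least 1 read were tested, 2 of these 13 had an adjusted p under 0.05 (limma), beside 2.81% of all genes in that fit. Both were picked after their values were seen. Hoxa5, a homeobox gene of a cluster that retinoic acid controls in the embryo, had values of 0.494, 0.377 and 0.289 in L-RalyKO and of 0.775, 0.842 and 1.027 in control liver, from 11 to 38 reads per mouse (log2 fold change on value + 1 of -0.44, adjusted p = 0.0334). Dhrs9, a short-chain dehydrogenase gene, had values of 0.0873, 0.0870 and 0.132 in L-RalyKO and of 0.358, 0.245 and 0.297 in control liver, from 3 to 12 reads per mouse (log2 fold change -0.24, adjusted p = 0.0362). The groups did not overlap for 4 of the 13 genes, with L-RalyKO lower in 3 (Hoxa5, Dhrs9 and Cyp26c1) and higher in 1 (Aldh1a3), beside 28.1% of the genes that passed the filter, so this count is near the share over other genes.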
